A study of Mus musculus with 3 samples.

Results

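The receptors of interleukin 1, interleukin 18 and interleukin 33 were described in activated regulatory T cells (Treg cells, the Foxp3-expressing CD4 T cells that restrain immune responses). The 10 genes were the receptor chains Il1r1, Il1r2, Il1rap, Il1rl1, Il1rl2, Il18r1, Il18rap and Sigirr, the antagonist gene Il1rn and the binding protein gene Il18bp. They were chosen by name as members of 1 cytokine and receptor family, with earlier results of these data known, as were the gene lists below. Shares of detected genes set beside all genes are therefore descriptions and not tests. Gene identifiers were matched to symbols through the GENCODE M21 annotation. All 10 were found among 55536 annotated genes, and their 51 annotated transcripts were read from the transcript tables. The study sequenced polyadenylated RNA of activated Treg cells of a male mouse aged 9 weeks, as 3 technical libraries of 1 biosample from 1 donor. The labels name no strain, genotype, tissue of origin, sorting marker or activation treatment. No second group was present, so the values are levels within these cells, comparisons between genes, and the spread between libraries. Every SD below is over libraries 1, 2 and 3 of the same cells and is technical.

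Receptors of this family share immunoglobulin domains outside the cell and a Toll and interleukin 1 receptor (TIR) domain inside it. A ligand-binding chain (Il1r1 for interleukin 1, Il1rl1 for interleukin 33, Il1rl2 for interleukin 36, Il18r1 for interleukin 18) recruits an accessory chain, Il1rap or, for interleukin 18, Il18rap. The paired TIR domains then signal through Myd88 and Irak kinases to NF-kB. The family is restrained by a decoy receptor without a TIR domain (Il1r2), soluble receptor forms, a receptor antagonist (Il1rn), a secreted interleukin 18 binding protein (Il18bp) and an inhibitory receptor (Sigirr). In mice, Treg cells of many tissues carry ST2, the product of Il1rl1, and respond to interleukin 33.

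Of the 10 genes, 8 were detected, that is, reached a TPM (a level scaled to library size and corrected for length) of 1 in all 3 libraries. The same held for 22.7% of all annotated genes and for 47.3% of protein-coding genes. At 0.5 TPM 9 of the 10 were detected (25.4% of all genes) and at 5 TPM 6 (17.5%), and 9 had at least 10 counts in every smaller gene table, made by the authors from a separate alignment (49.1%). The median over the 10 genes was 11.4 TPM, against 23.2 TPM over the 12629 detected genes. Sigirr was highest, the decoy gene Il1r2, the interleukin 33 receptor gene Il1rl1 and the interleukin 18 receptor gene Il18r1 followed, and Il1rl2 and Il1r1 stayed under 1 TPM. Libraries 1, 2 and 3 held 31445344, 32612609 and 37259281 expected counts, of which 31406146, 32553270 and 37201436 fell on annotated genes. Of the counts on annotated genes the 10 genes took 0.0475%, 0.0469% and 0.0477%. All 7 T cell markers and all 6 Treg markers were detected, Foxp3 among them at 138, 133 and 134 TPM. Because the libraries come from bulk RNA, fewer cells that use a gene and less of its RNA per cell cannot be told apart.

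**Figure D1:**
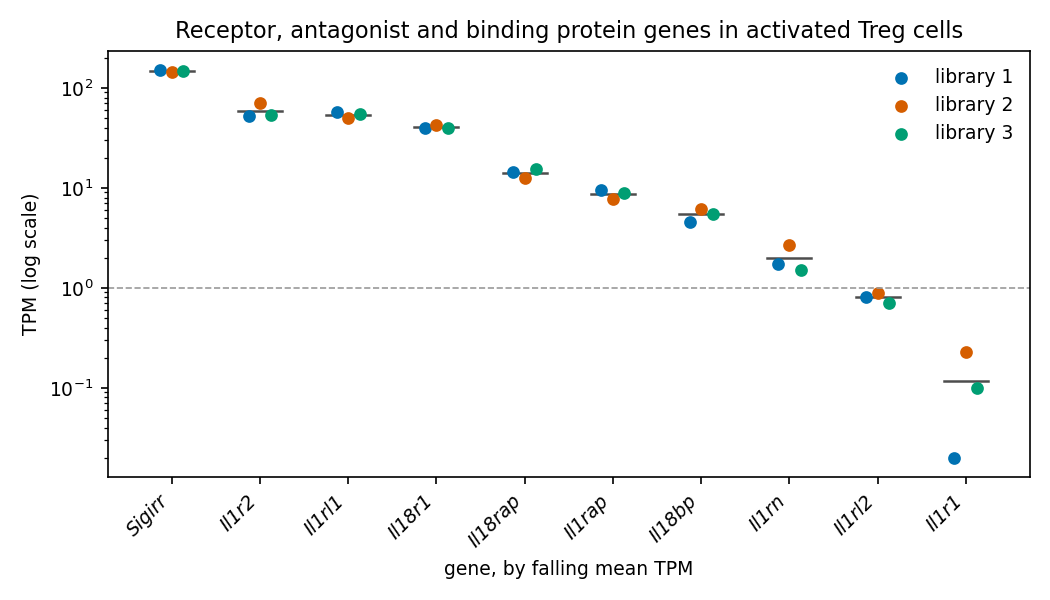
TPM of the 10 genes on a log axis, with 1 point per library, a bar at the mean and a dashed line at 1 TPM. Sigirr lay at 143 to 150.5 TPM, Il1r2, Il1rl1 and Il18r1 lay between 39.9 and 69.9 TPM, and Il1rl2 and Il1r1 lay under the dashed line in every library.

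Il1rl1 encodes ST2, the ligand-binding chain of the interleukin 33 receptor (ENSMUSG00000026069.15, mm10 chr1:40429570-40465415, plus strand). It stood at 57.6, 49.8 and 54.65 TPM in libraries 1, 2 and 3, with 4692, 4339 and 5469 expected counts. Its mean of 54.0 ± 3.95 TPM (SD, n = 3) placed it above 71.4% of detected genes, a share that was 87.5% without length correction and 56.3% by counts of the smaller gene table per kilobase. The gene has alternative first exons, of which the distal one has been described in mouse mast cells and the proximal one in fibroblasts. In the annotation the proximal exon starts 10057 bases downstream of the distal one, and RefSeq (GRCm38.p6) has a start at each. The 250 bases before each start are shown because the transcripts were divided by first exon, and capitals mark words of GATA with A or T before it and A or G after it, on either strand, with overlaps counted. The windows lie at chr1:40429320-40429569 (distal) and chr1:40439379-40439628 (proximal), both on the plus strand.
Il1rl1 distal: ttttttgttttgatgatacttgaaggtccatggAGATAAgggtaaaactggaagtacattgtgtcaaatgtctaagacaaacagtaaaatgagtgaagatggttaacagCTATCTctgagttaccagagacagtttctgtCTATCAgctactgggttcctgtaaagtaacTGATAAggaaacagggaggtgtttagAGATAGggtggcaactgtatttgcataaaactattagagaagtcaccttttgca
Il1rl1 proximal: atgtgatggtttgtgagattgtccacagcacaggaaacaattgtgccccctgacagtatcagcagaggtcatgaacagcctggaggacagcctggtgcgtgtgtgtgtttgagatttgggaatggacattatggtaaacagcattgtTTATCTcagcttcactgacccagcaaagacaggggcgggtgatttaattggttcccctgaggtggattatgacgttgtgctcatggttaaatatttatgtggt
The distal window held 5 such words, at 217, 141, 110, 80 and 54 bases before the start, and the proximal window held 1, at 103 bases. Among 32851 RefSeq windows of the same length, 26.5% held at least 1 and 14 windows (0.0426%) held 5 or more. Over the family, 4 of 15 windows held at least 1, in 9 genes with an entry. A match is a description of the letters and not a bound site. Of the GATA factor genes on the fixed lists, Gata3 stood at 119, 118 and 123 TPM and Gata2 had 0, 1 and 0 counts.

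GENCODE M21 gives Il1rl1 4 complete transcripts and an incomplete model, Il1rl1-204. Il1rl1-201, with the long coding sequence of the membrane receptor, held 70.3%, 64.0% and 63.5% of the TPM of the gene in libraries 1, 2 and 3 (mean 65.9% ± 3.78, SD, n = 3). It starts at the exon that all the other models share and has no base of its own. Il1rl1-205, the only complete model with the distal exon, held 15.0%, 9.56% and 13.9%. Il1rl1-202 and Il1rl1-203, which start at the proximal exon, together held 12.5%, 22.5% and 22.5%. The distal exon was thus below the proximal one in libraries 2 and 3 and above it in library 1, so no direction held in all 3 libraries (means 12.8% ± 2.90 for the distal and 19.2% ± 5.79 for the proximal exon). By expected counts, in which a longer transcript weighs more, the distal transcript held 197, 115 and 208, below the 545, 912 and 1204 of the proximal ones in all 3 libraries. Of the distal transcript 61 bases, its first exon, occur in no other complete model, and of Il1rl1-202 168 bases. The authors' interval of TPM for Il1rl1-202 ran from 0.338 to 7.31 in library 1, so its share is loosely fixed. No M21 transcript joins the distal exon to the long coding sequence, so such RNA could not be counted as such.

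**Figure D2:**
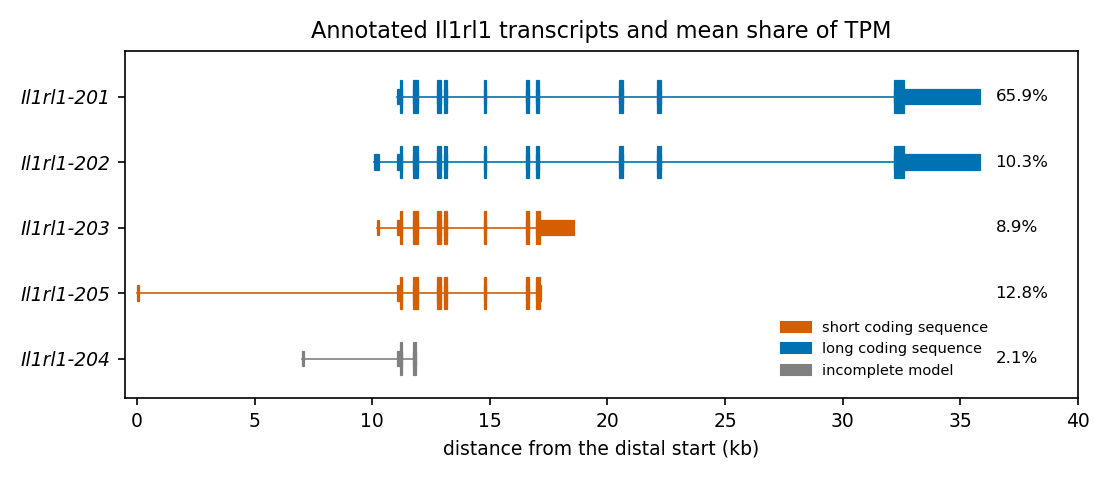
The 5 annotated Il1rl1 transcripts by distance from the distal start in kb, with tall boxes for coding exons, low boxes for other exons and the mean share of TPM over 3 libraries at the right. The long coding transcripts Il1rl1-201 and Il1rl1-202 held 65.9% and 10.3%, the short coding transcripts Il1rl1-203 and Il1rl1-205 held 8.89% and 12.8%, and the incomplete Il1rl1-204 held 2.06%.

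Short coding forms, which end before the TIR domain of the full chain, were annotated for Il1rl1, Il18r1 and Il1rap. A complete coding sequence under 75% of the longest of its gene was classed as short. The sequences below are shown because they are where each short form parts from its long form. Lower case marks the last 30 shared coding bases, and capitals mark what follows, up to the stop codon of the short form, from GENCODE M21 transcripts on mm10.
Il1rl1-203: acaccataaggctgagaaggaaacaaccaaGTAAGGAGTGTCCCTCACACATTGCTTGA
Il1rl1-201: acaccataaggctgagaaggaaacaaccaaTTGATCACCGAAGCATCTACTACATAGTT
Il18r1-203: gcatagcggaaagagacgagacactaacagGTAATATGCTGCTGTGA
Il18r1-202: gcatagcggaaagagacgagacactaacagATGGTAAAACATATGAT
Il1rap-206: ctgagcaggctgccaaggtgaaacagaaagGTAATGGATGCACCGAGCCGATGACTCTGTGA
Il1rap-201: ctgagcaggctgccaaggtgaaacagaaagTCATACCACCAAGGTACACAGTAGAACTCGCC
All 3 short forms read straight on from the shared exon into what is an intron of the long form, and each continuation opens with GTAA. The split followed chr1:40446646-40446675 in Il1rl1, chr1:40491187-40491216 in Il18r1 and chr16:26701207-26701236 in Il1rap. Short and long forms shared 985 coding bases in Il1rl1, after which 29 bases to the end of the stop codon remained in the short form and 719 in the long form. The shared stretch was 1102 coding bases in Il18r1 (then 17 in the short and 512 in the long form) and 1051 in Il1rap (then 32 in the short and 662 in the long form). A further Il18r1 short form, Il18r1-205, parts from the long form earlier, where it leaves out an exon. Its transcript ends at the same base as Il18r1-203, chr1:40491578. Reads of unspliced RNA over these introns and reads of the short forms cannot be told apart in these tables.

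For Il1rl1, the short form is soluble ST2, which binds interleukin 33 outside the cell. It held 21.4%, 20.8% and 23.0% of TPM in libraries 1, 2 and 3, against 76.4%, 75.3% and 77.0% for the long form. The log2 ratio of short over long TPM was -1.81 ± 0.06 (SD, n = 3), below 0 in 3 of 3 libraries and beyond 2 SD. By expected counts the short form held 9.03% and the ratio was -3.33. Of the exonic bases, 1534 occurred in short forms only and 4114 in long forms only. Il1rl1-203, with 8.89% of TPM, had 1425 bases found in no other complete model. Il1rl1-205, with 12.8%, had 61, so the larger part of the short share is loosely fixed. RNA that joins the distal exon to the long coding sequence has no M21 model, and its part in the short share was not tested.

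Il18r1, the ligand-binding chain for interleukin 18 (ENSMUSG00000026070.15, chr1:40465552-40500854, plus strand), stood at 39.99, 43.0 and 39.9 TPM in libraries 1, 2 and 3 (41.0 ± 1.75, SD, n = 3). Its short forms held 48.6%, 44.0% and 49.0% of TPM, and its long forms the remaining 51.4%, 56.0% and 51.0%. The log2 ratio of short over long was -0.16 ± 0.16, below 0 in 3 of 3 libraries but within 2 SD, and by counts it was -1.22 with a short share of 30.1%. Il18r1-202 (29.3% ± 3.42) and Il18r1-206 (23.5% ± 4.89) carried the long form. Il18r1-204 (21.8% ± 1.70), Il18r1-205 (15.9% ± 3.33) and Il18r1-203 (9.53% ± 1.55) carried the short forms. Only 659 exonic bases belonged to short forms alone, against 2676 to long forms alone.

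Il18rap, the accessory chain for interleukin 18 (ENSMUSG00000026068.11, chr1:40515362-40551705, plus strand), stood at 14.6, 12.4 and 15.6 TPM (14.2 ± 1.59, SD, n = 3). It lay below Il18r1 in each library, with a log2 ratio of Il18rap over Il18r1 of -1.54 ± 0.23. Il18rap-201, the coding transcript, held 87.1% ± 3.14 of its TPM and the retained intron transcript Il18rap-203 6.52% ± 2.86. Il18bp, which encodes the secreted protein that binds interleukin 18 (ENSMUSG00000070427.4, chr7:102014885-102018690, minus strand), stood at 4.60, 6.15 and 5.52 TPM. Its log2 ratio over Il18r1 was -2.93 ± 0.17. Il18bp overlaps Numa1 on the other strand by 80 bases, and Il18bp held 145, 187 and 193 counts against 8829, 8319 and 9271 for Numa1. The strand setting of the counting is not stated, so the level of Il18bp is less certain.

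Il1rap, the accessory chain shared by the receptors of interleukins 1, 33 and 36 (ENSMUSG00000022514.14, chr16:26581704-26730117, plus strand), stood at 9.60, 7.68 and 8.79 TPM (8.69 ± 0.964, SD, n = 3). Its log2 ratio over Il1rl1 was -2.64 ± 0.06, so that the accessory chain transcript was at 0.161 of the level of the ST2 transcript, in a like ratio in all 3 libraries. The short form Il1rap-206, a soluble accessory protein, held 18.9%, 13.9% and 14.6% of TPM, against 69.4%, 85.8% and 85.4% for the long form Il1rap-201. The log2 ratio of short over long was -2.35 ± 0.41, and by counts it was -3.34 with a short share of 8.99%. The rest, 11.8% in library 1, 0.260% in library 2 and 0% in library 3, fell on transcripts without a complete coding sequence.

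**Figure D3:**
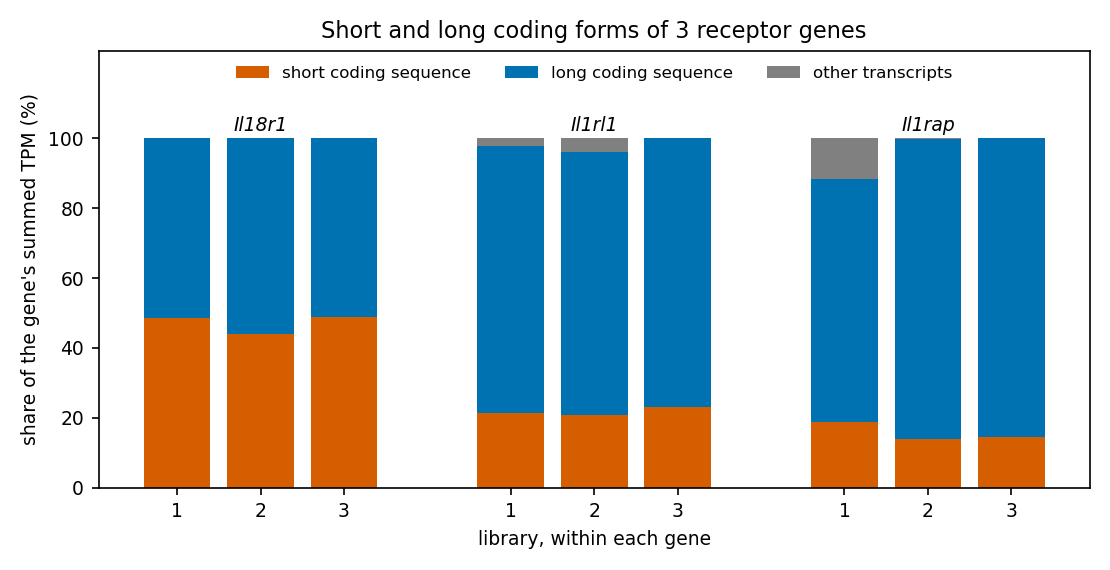
Share of the summed TPM of each gene, in percent, held by short coding, long coding and other transcripts in libraries 1, 2 and 3. Short forms held 44.0% to 49.0% of Il18r1, 20.8% to 23.0% of Il1rl1 and 13.9% to 18.9% of Il1rap.

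Of the interleukin 1 receptor genes, the decoy was expressed and the signalling receptor was near 0. Il1r2 (ENSMUSG00000026073.13, chr1:40074079-40125231, plus strand), which binds interleukin 1 without signalling, stood at 52.7, 69.9 and 53.9 TPM (58.8 ± 9.64, SD, n = 3), highest in library 2. Il1r1, the signalling chain (ENSMUSG00000026072.12, chr1:40225080-40317257, plus strand), stood at 0.02, 0.23 and 0.10 TPM. Behind these lay 1257, 1853 and 1575 expected counts for Il1r2, against 2, 18 and 1 for Il1r1. Over all libraries 4685 counts of Il1r2 stood against 21 of Il1r1, a ratio of 223 (95% exact interval 146 to 361, counting error only), and 18 of the 21 fell in library 2. In library 2 alone the ratio was 103 (95% exact interval 65.0 to 174). The deposited length of Il1r1 differed between libraries, at 4832, 3820 and 473 bases, because its few counts fell on different transcripts. Its TPM are therefore loosely fixed, and the log2 ratio of Il1r2 over Il1r1, 9.56 ± 1.61, is too. The smaller gene table gave 927, 1212 and 1060 counts for Il1r2, against 1, 6 and 0 for Il1r1.

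Il1r2-201, which encodes the whole decoy receptor, held 78.8% ± 2.58 of the TPM of Il1r2 (SD, n = 3). Il1r2-204, annotated as subject to nonsense-mediated decay, held 15.4% ± 0.282, and the incomplete Il1r2-203 held 5.79% ± 2.52. The antisense gene Gm16894 overlaps Il1r2 and held 19, 18 and 38 counts, few beside those of Il1r2. Il1rn, the antagonist that occupies Il1r1 without signalling (ENSMUSG00000026981.15, chr2:24336853-24351494, plus strand), was low at 1.75, 2.71 and 1.5 TPM, with 71, 92 and 61 counts. Its level exceeded that of Il1r1 in every library, with a log2 ratio of 4.64 ± 1.58, and Il1rn-201 held 78.0% ± 7.19 of it. Il1rl2, the interleukin 36 receptor chain (ENSMUSG00000070942.8, chr1:40324610-40367562, plus strand), stood at 0.80, 0.89 and 0.71 TPM with 57, 55 and 61 counts, under the detection threshold in all 3 libraries.

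Sigirr, an inhibitory receptor of the family that dampens interleukin 1, 18 and 33 signalling (ENSMUSG00000025494.8, chr7:141091175-141100572, minus strand), stood at 150.5, 143 and 147 TPM (147 ± 3.95, SD, n = 3). This placed it above 89.96% of detected genes, the highest rank of the 10 (87.7% without length correction, 95.5% by the smaller gene table per kilobase). Coding transcripts with a long coding sequence led it: Sigirr-203 held 39.5% ± 4.75, Sigirr-206 27.3% ± 2.97 and Sigirr-201 11.7% ± 2.31. The retained intron transcript Sigirr-208 held 10.03% ± 1.09, and the incomplete Sigirr-204 5.64% ± 0.559. Sigirr exceeded Il1rl1 by 1.45 ± 0.07, Il18r1 by 1.84 ± 0.10 and Il1rap by 4.08 ± 0.12 on the log2 scale, each in 3 of 3 libraries. All 3 ratios were smaller as CPM, counts scaled to library size with no length correction. Sigirr and Il1rl1 then stood at 145 and 143, a log2 ratio of 0.02 that lay within the spread, while the ratios over Il18r1 (1.08) and Il1rap (2.74) still exceeded it.

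Along the order of mean TPM, most neighbours were separated by more than 2 SD of their log2 ratio. The exceptions were Il1r2 over Il1rl1 (0.11 ± 0.33, higher in 1 of 3 libraries), Il1rap over Il18bp (0.68 ± 0.37) and Il1rl2 over Il1r1 (3.37 ± 1.75). All 12 pairs fixed for comparison exceeded 2 SD, although with 3 libraries the smallest p of an exact sign-flip test is 0.25. The pairs were chosen with earlier results of these data known and the SD is technical, so this count describes the levels and tests nothing. The remaining pairs were Il1rl1 over Il18r1 (0.40 ± 0.16), Il1rl1 over Il1rl2 (6.08 ± 0.24), Il1rl1 over Il1r1 (9.45 ± 1.89) and Il1rap over Il1r1 (6.81 ± 1.95). The smallest of them, Il1rl1 over Il18r1, no longer exceeded 2 SD without library 1 (0.33) or without library 3 (0.37), and by smaller table counts per kilobase it turned to -0.30 ± 0.16, within 2 SD. The order of the 4 highest genes changed with the measure. Without length correction it ran Sigirr, Il1rl1, Il18r1, Il1r2, and by counts of the smaller gene table per kilobase it ran Sigirr, Il1r2, Il18r1, Il1rl1.

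Of the 10 genes, 6 lie side by side on the plus strand of chromosome 1, in the order Il1r2, Il1r1, Il1rl2, Il1rl1, Il18r1 and Il18rap. They are all 6 of the protein-coding genes in a span of 478 kb. Levels differed along the span. Il1r2 stood at 58.8 ± 9.64 TPM, followed by the low Il1r1 and Il1rl2 at 0.117 ± 0.106 and 0.80 ± 0.09. After them came Il1rl1 at 54.0 ± 3.95, Il18r1 at 41.0 ± 1.75 and Il18rap at 14.2 ± 1.59 (SD, n = 3). Il1rl1 ends 136 bases before Il18r1 starts, so reads of either near that border could bear on the other. The genes beyond the span differed as well: Map4k4, a kinase gene before Il1r2, stood at 44.1 ± 1.27 TPM, and Gm3646 beyond it had 0 counts. The sodium and proton exchanger genes Slc9a4 and Slc9a2, after Il18rap, had 0 counts, which allowed means of up to 0.0828 and 0.0519 TPM by the limit of 3 counts per library.

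**Figure D4:**
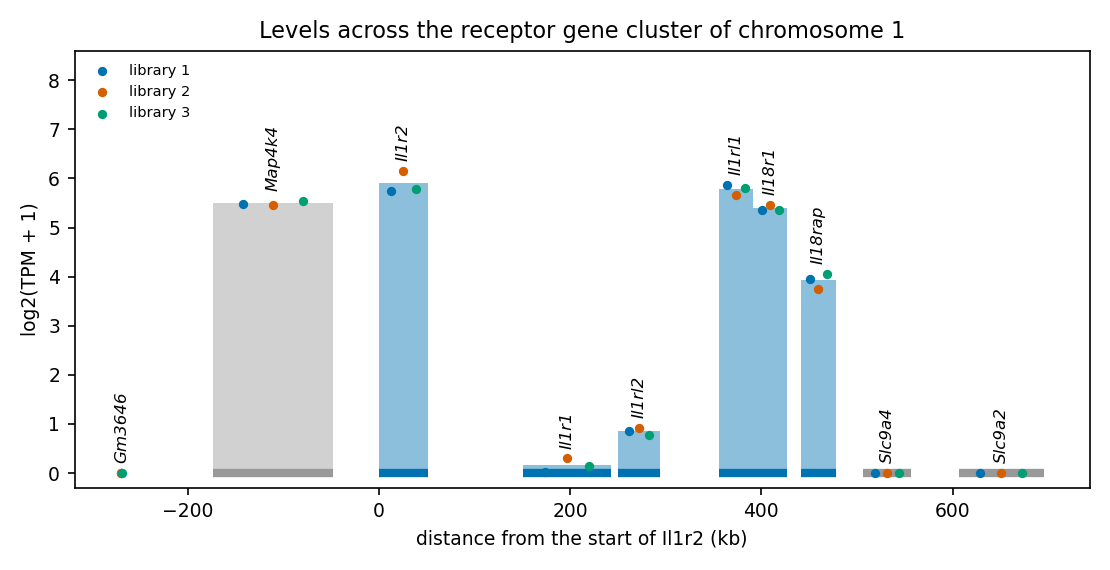
Levels as log2(TPM + 1) along the receptor gene cluster, by distance from the start of Il1r2 in kb, with bars at the mean over the width of each gene, points for the 3 libraries, blue for genes of the family and grey for neighbours. Il1r2, Il1rl1 and Il18r1 stood highest among the genes of the family, and Il18rap was lower, at a mean of 14.2 TPM. Il1r1 and Il1rl2 lay near the axis, between Il1r2 and Il1rl1.

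Read counts of the family differed between the technical libraries about as often as those of other genes. A chi-square test of equal shares, adjusted by Benjamini-Hochberg over 15945 genes, called 6 of the 9 genes tested, against 65.8% of all genes tested. Il1r1 had too few counts to be tested. Il1r2 differed most clearly (adjusted p = 9.09e-25), with 19.3% of variation in excess of counting noise, where genes of 1000 to 10000 counts had a median of 5.14%. Il18rap (12.5%, adjusted p = 2.81e-09), Il1rl1 (5.80%, 1.75e-07), Il18r1 (5.92%, 0.000307), Il1rn (24.7%, 0.00753) and Sigirr (2.39%, 0.0356) also passed. Il1rn had fewer counts than the others, and genes with a mean count of 10 to 100 had a median of 30.2%. Il1rap (adjusted p = 0.0946), Il18bp (0.182) and Il1rl2 (0.871) did not. With TMM library sizes (65.6% of all genes) or DESeq2 size factors (65.7%) 6 of 9 passed as well. With no count filter it was 6 of 10 (41.7%), from a summed count of 300 it was 5 of 7 (71.8%), and by smaller table counts it was 3 of 9 (33.5%). Without library 1 it was 7 of 9 (48.6%), and without library 3 it was 5 of 9 (45%). Library 2 held the highest TPM of 6 genes and the lowest of the other 4, and without it none of the 9 passed, against 41.1% of all genes. None passed after division by the overdispersion that all genes share (8.61), against 1.85% of all genes. The unadjusted p of Il1r2 was then 0.00102 and its adjusted p 0.0535. Il1r2 is also expressed by neutrophils, whose 10 markers summed to 22.6, 1.30 and 2.31 TPM in libraries 1, 2 and 3, and their part in the Il1r2 values was not tested.

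Genes of the cytokines that bind these receptors were mostly not detected. Of 8 ligand genes matched, Il18 alone was detected, at 4.17, 3.57 and 3.25 TPM. Over all annotated genes 22.7% were detected, and over protein-coding genes 47.3%. Il1b had 25, 0 and 0 counts, Il1a 0, 1.14 and 1.08, and the interleukin 36 gene Il36g 0, 0 and 9. Il33, Il36a, Il36b and Il1f10 had 0 counts in all 3 libraries, which for Il33 allowed a mean of up to 0.113 TPM. Of the 11 genes that process or release these cytokines 7 were detected, led by Pycard (497 ± 32.6), an inflammasome adaptor gene, Casp8 (199.98 ± 4.99) and Gsdmd (144 ± 14.04), the gasdermin D gene. Ctsg and Nlrp3 were lowest, with 0 counts in all libraries and with 2, 0 and 0 counts.

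All 15 genes listed for receptor-proximal signalling were detected, with a list median of 36.2 TPM. The role of each listed gene at these receptors was not tested. Ube2n (301 ± 0.341) and Ube2v1 (254 ± 3.26), which build ubiquitin chains, and the NF-kB kinase gene Ikbkb (170 ± 4.90) were highest. The adaptor genes Tirap (7.87 ± 2.05) and Tab3 (5.92 ± 0.875) were lowest. Of 10 genes listed for restraint of the pathway 9 were detected, with a median of 48.4 TPM. Whether each of these genes restrains signalling at these receptors was not tested either. The ubiquitin ligase gene Peli1 (278 ± 9.06), the deubiquitinase gene Cyld (114 ± 2.15) and Socs1 (95.9 ± 4.31) led them. Irak3 (2.34 ± 0.645), which encodes an inhibitory Irak kinase, and Fbxl19 (1.05 ± 0.541) were lowest. The receptor relatives Il1rapl1 and Il1rapl2 were not detected, with 0, 33 and 0 and with 1, 0 and 0 counts. All 13 genes described for ST2-expressing tissue Treg cells were detected, with a median of 120 TPM, the level of Gata3. One of them, Ikzf2, is also on the Treg marker list, and without a second group their detection does not set these cells apart from other Treg cells. Ikzf2 (389), Klrg1 (266) and Tnfrsf9 (234) led them, and Areg (6.68), an epidermal growth factor family gene, and Pparg (2.62) were lowest. Over all 6 lists 45 of 59 matched genes were detected, against 22.7% of all annotated genes and 47.3% of protein-coding genes.

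**Figure D5:**
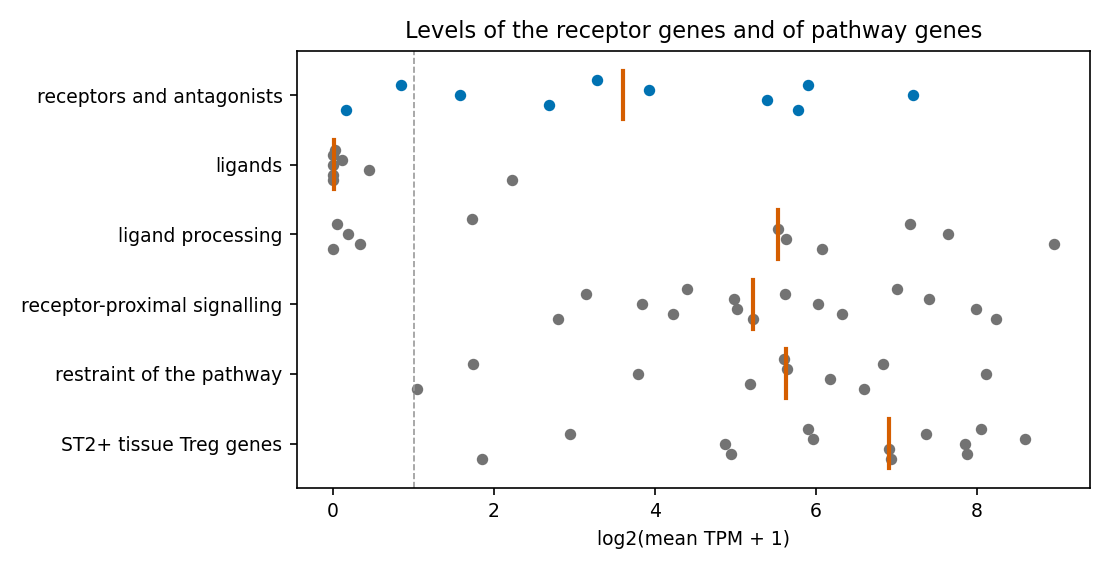
Mean level as log2(mean TPM + 1) of each gene of the receptor family in blue and of 5 pathway lists in grey, with an orange bar at each list's median and a dashed line at 1 TPM. Ligand genes lay at or near 0 except Il18, while all 15 signalling genes and all 13 genes of ST2-expressing tissue Treg cells lay above the line.

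Markers of mast cells, basophils, group 2 innate lymphoid cells and neutrophils were mostly not detected, while some markers of NK cells, macrophages, B cells and dendritic cells were. For comparison, 22.7% of all annotated genes and 47.3% of protein-coding genes were detected. Of 10 mast cell and basophil markers, which share Il1rl1, only Kit was detected, the list summed to 2.86, 2.20 and 6.80 TPM, and Prss34 had 0 counts. Of 6 markers of group 2 innate lymphoid cells only Il17rb was detected, the list summed to 7.56, 6.66 and 5.97 TPM, and Il13 had 0 counts. Il1rl1 stood at 49.8 to 57.6 TPM, and how much Il1rl1 RNA such cells hold beside their marker RNA is not known here. Of 8 NK cell markers, which share the interleukin 18 receptor, 4 were detected, the list summed to 17.0, 14.7 and 14.7 TPM, and Klra8 and Klra4 had 0 counts. None of the 10 neutrophil markers was detected in all 3 libraries. Of 10 macrophage and monocyte markers 6 were detected and summed, with the rest of the list, to 64.2, 62.1 and 64.6 TPM, led by Lyz2. B cell markers (5 of 6 detected) summed to 56.2, 43.7 and 44.99 TPM, dendritic cell markers (2 of 6) to 42.9, 25.96 and 37.6, CD8 T cell markers (2 of 2) to 24.4, 22.8 and 21.98, gamma delta T cell markers (2 of 3) to 14.9, 14.05 and 12.3, and markers of stroma, endothelium and epithelium (1 of 7, Epcam) to 32.8, 29.5 and 32.3. The part of these cells in the receptor levels was not tested.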

How the data were processed

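RNA was measured in 3 technical libraries of 1 biosample. The deposited gene and transcript tables hold expected counts, TPM, FPKM and, per transcript, a percent share of its gene. Per the sample notes, the authors used mm10 and GENCODE M21. The deposited posterior interval bounds of TPM were read as a signal with a level that is not stated. The smaller deposited gene table holds whole-number counts on GENCODE M4 from a separate alignment. No source used here gives the aligner, the quantification program or the strand handling. For Sigirr in library 1, length minus effective length plus 1 came to 50 bases. This was taken as the read length and was not checked in another way.

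The 10 genes, the gene lists and the pairs were chosen with earlier results of these data known. Levels are TPM with mean and SD over libraries. A log2 ratio was called beyond the spread when its 3 values had 1 sign and their mean exceeded 2 SD. Expected counts were rounded for the chi-square test (2 degrees of freedom, summed count of at least 30, adjusted p under 0.05 by Benjamini-Hochberg over all genes tested). The test was tried on simulated counts with counting noise only. These libraries had a shared overdispersion of 8.61, which that trial does not cover. A count of 0 allowed up to 3 counts, and intervals and such limits cover counting error only, since reads of 1 molecule cannot be recognised without molecular identifiers. Transcripts were named from a mean share of 5%, pathway genes as the 3 highest and 2 lowest of each list, with all ligands. Of 60 listed pathway genes 59 matched (all but Il36rn), Il36a, Il36b and Il36g through RefSeq synonyms. Alternatives were other measures, thresholds, TMM (edgeR 4.0.16) and DESeq2 1.42.0 size factors, and leaving out each library. Python 3.11.15, pandas 2.3.3, scipy 1.17.1 and R 4.3.3 were used.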

Additional observations from a re-analysis of the deposited data

How the results depend on the processing

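The number of the 9 tested genes that differed between libraries was 6 with total counts and between 5 and 6 with other library sizes and filters (with no filter Il1r1 passed and Sigirr did not). It was 0 with shared overdispersion and 3 in the smaller gene table (Il1r2, Il18r1 and Il18rap), and 0 to 7 when a library was left out, with 0 without library 2. Shares moved with the measure: by expected counts Il1rl1-201 held 78.1%, and short forms held 9.03% of Il1rl1, 30.1% of Il18r1 and 8.99% of Il1rap. Without a library these were 63.7% to 67.1%, 21.1% to 22.2%, 46.3% to 48.8% and 14.3% to 16.7% by TPM. The cause of these moves was not tested. The short form alternatives were chosen after seeing the data. Detected members numbered 6 to 9 and detected pathway genes 40 to 46 over all thresholds, and pairs beyond the spread 8 of the 8 with a value in the smaller gene table and 10 at 3 SD. By smaller table counts per kilobase of M21 length, an alternative chosen after seeing the data, 7 of 8 pairs exceeded the spread and Il1rl1 over Il18r1 changed direction (-0.30 ± 0.16, SD, n = 3); no other fixed pair did under any alternative. By CPM, Il1rl1 stood above 87.5% of detected genes and by the smaller table per kilobase above 56.3%. Under each of these measures 9 of the 10 genes moved by more than 1 SD in such percentiles. Among the 9 were the undetected Il1r1 and Il1rl2, whose percentile by TPM was 0 with an SD of 0. Any value above 0 counted as a move for them. No paired analysis was possible because the series has 1 group. Depth limits Il1r1, whose 0.02 and 0.10 TPM in libraries 1 and 3 lay under the 0.0322 and 0.303 TPM that 3 counts allow. In library 2 its 0.23 TPM, from 18 counts, lay above that limit of 0.0384 TPM. The limit of library 3 rests on a deposited length of 473 bases.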
